A study of Drosophila melanogaster with 2 samples.

Results

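The pair-rule genes are the 9 genes eve, hry, run, ftz, odd, prd, slp1, slp2 and opa, chosen by name out of 13945 protein-coding genes on the 6 large chromosome arms of Drosophila melanogaster. All 9 were found in the annotation. They were examined in chromatin immunoprecipitation sequencing (ChIP-seq) peak lists for Spalt major (Salm), a zinc-finger transcription factor. The material was whole embryos 0 to 16 h old from a transgenic line that stably expresses salm with GFP at its C-terminal end, and the tagged protein was pulled down through GFP. The series holds 1 group with 2 biological replicates, without another genotype, stage or treatment. Every value is therefore a mixture of all tissues and stages in that span, and nothing between conditions could be tested. The labels name neither the sequence that drives the fusion nor whether untagged Salm remained. Peak lists hold no expression values, so the embryos could not be checked against tissue markers.

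Pair-rule genes divide the blastoderm embryo into repeating units. Most are transcribed in stripes that mark alternate segments, whereas opa is transcribed in a broad domain. Their products, all of them transcription factors, set the stripes of the segment polarity genes engrailed and wingless. Gap factors read by separate stripe enhancers start the pattern, and regulation among the pair-rule genes refines it. Enhancers of these genes lie upstream, downstream and in introns. For this reason each gene was examined from 2 kb upstream to its end (the gene window) and over a further 10 kb on either side (the region). A summit is the position that the authors' peak caller gave as the centre of binding. A thresholded summit belongs to the authors' list of 3421 peaks, thresholded by the irreproducible discovery rate, which measures rank consistency between replicates. These are also the 3421 strongest of the 30000 peaks called on both replicates pooled. A sub-threshold summit occurs only in that longer, pooled list.

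The thresholded summits in these regions lay at hry and between slp1 and slp2, the latter outside both gene windows. Only hry held a thresholded summit in its window (1 of 9 genes, 11.1%). By the same rule 21.4% of all protein-coding genes held one, and 23.4% of the 8249 genes whose windows were as long as those of the members (3425 to 19167 bp). With 10 kb on either side, hry, slp1 and slp2 were reached (3 of 9, 33.3%), against 54.2% of all genes. The slp1 and slp2 regions overlap and shared the same 2 summits, so the 9 regions held 3 distinct thresholded summits in all. In the pooled list 5 windows held a summit, those of hry, odd, slp1, slp2 and opa (55.6%). The same was true of 61.4% of all genes and of 68% of genes with windows of like length. These shares rest on 9 genes, and no test was made of them.

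**Figure D1:**
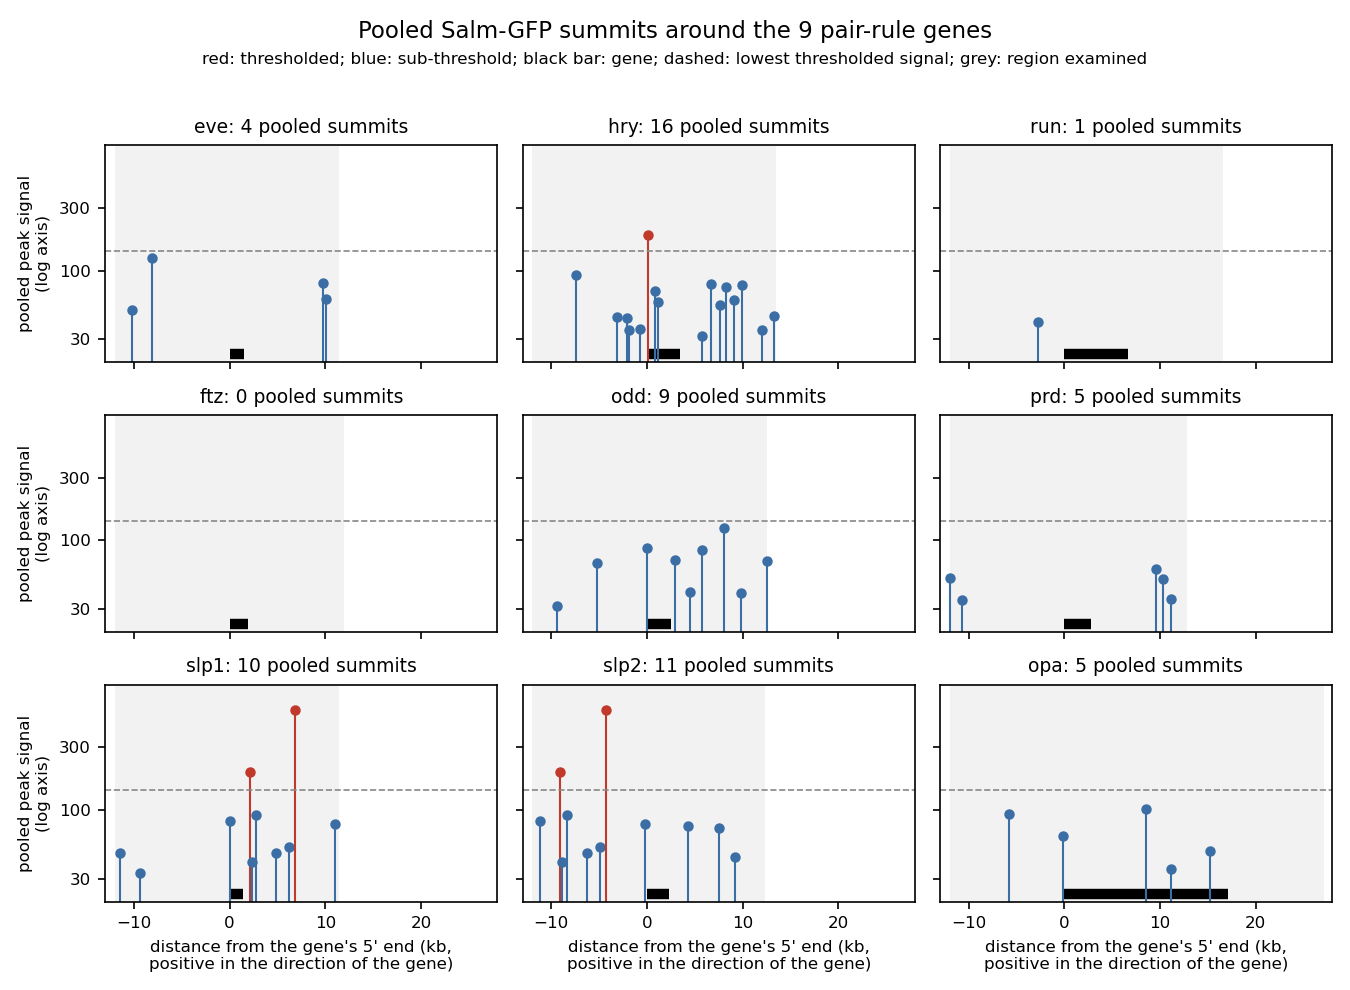
Pooled peak signal (vertical, log axis) against distance from the 5′ end of each gene (horizontal, kb, positive in the direction of transcription) for the 9 pair-rule genes. Red points are thresholded summits, blue points sub-threshold summits, black bars the genes, the dashed line the lowest thresholded signal (141) and grey the region examined. Red points appear only at hry and in the overlapping slp1 and slp2 regions, and the ftz panel is empty.

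Sequences at some summits of slp1, slp2 and opa are shown, and none of hry or odd. They are on the plus strand of dm6, from the Release 6 RefSeq genome. The first is the whole strongest peak of the 9 regions. The next runs 50 bp to either side of the other thresholded summit at the slp genes, as do those for the strongest sub-threshold summits in the windows of slp2 and opa. For slp1 the 52 bases upstream of its start are shown, since its summit lies at the start itself. Capitals mark the searched words on either strand, which were GAGAG for the GAGA factor, TATCGATA for the DNA replication-related element, CAGGTAG for Zelda, AATATT as a word of A and T alone, and GTCACACT for Motif 1. A line with no capitals holds none of them.
slp1 to slp2, thresholded peak of signal 582, chr2L:3832393-3832630: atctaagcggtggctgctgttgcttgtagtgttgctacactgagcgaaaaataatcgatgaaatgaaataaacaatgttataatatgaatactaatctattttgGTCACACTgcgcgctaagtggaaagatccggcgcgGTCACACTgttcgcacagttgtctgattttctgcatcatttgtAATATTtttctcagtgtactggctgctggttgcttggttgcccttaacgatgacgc
slp1 to slp2, thresholded peak of signal 196, chr2L:3827736-3827836: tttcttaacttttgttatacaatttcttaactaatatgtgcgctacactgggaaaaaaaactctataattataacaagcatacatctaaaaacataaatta
slp1, sub-threshold peak of signal 81.7, chr2L:3825623-3825674: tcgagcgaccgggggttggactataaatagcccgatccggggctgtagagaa
slp2, sub-threshold peak of signal 78.6, chr2L:3836619-3836719: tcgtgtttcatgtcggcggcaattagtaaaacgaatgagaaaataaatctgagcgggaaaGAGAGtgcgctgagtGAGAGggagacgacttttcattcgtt
opa, sub-threshold peak of signal 101.3, chr3R:4861259-4861359: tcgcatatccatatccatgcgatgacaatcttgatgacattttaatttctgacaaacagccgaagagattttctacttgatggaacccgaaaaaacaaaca

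The slp1 and slp2 genes encode neighbouring forkhead-domain transcription factors that act late among the pair-rule genes and continue to act within segments. Both lie on arm 2L and are transcribed in the same direction, slp1 from 3825675 to 3827099 and slp2 from 3836840 to 3839185, with 9740 bp between them. The strongest peak of all 9 regions lay in that interval (2L, 3832393 to 3832630). Its summit was 6845 bp downstream of the start of slp1 and 4320 bp upstream of the start of slp2, in sequence annotated as intergenic. The pooled signal was 582, rank 223 of the 30000 pooled peaks. Replicate 1 had a signal of 384 there (rank 196), and replicate 2 a signal of 192 (rank 311). Signals are on each list's own scale, so only ranks compare across lists, and both replicates placed this site near the top. The pooled list was called on both replicates, so these replicate ranks are no separate evidence for the site. The replicate summits lay 15 and 13 bp from the pooled one. Of the 239 thresholded summits that were intergenic and over 2 kb from any transcription start site (TSS), 8 had a stronger peak, which puts this one 9th. Only 6.91% of all protein-coding genes had a stronger pooled peak within their own region. That share is not a test, since the region was described after its peaks were known.

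A second thresholded peak lay 2111 bp downstream of the slp1 start, 687 bp beyond the end of the gene (2L, 3827591 to 3827980). Its pooled signal was 196 (rank 1876), with 118 in replicate 1 (rank 2136) and 78.1 in replicate 2 (rank 1783). The 2 thresholded summits were 4734 bp apart. A sub-threshold summit lay 2764 bp downstream of the slp1 start (signal 90.8, rank 7293; ranks 8548 and 7008 in the replicates). At the promoters themselves the peaks were sub-threshold. A summit 2 bp upstream of the slp1 TSS reached 81.7 in the pooled list (rank 8624; replicate ranks 7240 and 10484). One 171 bp upstream of the slp2 TSS reached 78.6 (rank 9164). It was covered by a replicate 1 peak (rank 6934) and by none of replicate 2, whose nearest summit lay 391 bp upstream of that TSS (rank 18804). The paralogues thus had promoter peaks of like pooled signal, both well below the lowest thresholded signal of 141.

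**Figure D2:**
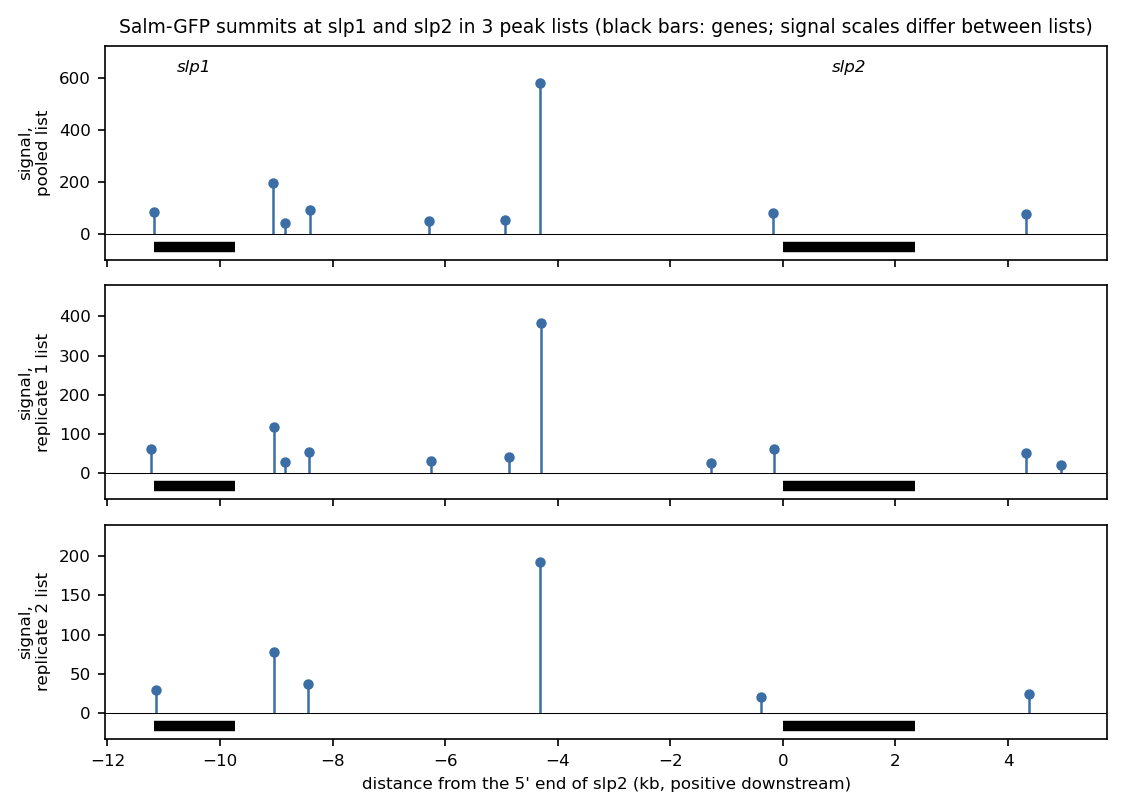
Peak signal (vertical, on each list's own scale) against distance from the 5′ end of slp2 (horizontal, kb) in the pooled, replicate 1 and replicate 2 lists. Points are summits and black bars the genes. The tallest point in each list is the intergenic summit 4320 bp upstream of slp2 in the pooled list, 4305 bp in replicate 1 and 4307 bp in replicate 2.

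The strongest slp peak held the word GTCACACT at 2 places on the plus strand, counted from the first base of the peak at 105 to 112 and at 140 to 147. They start 23 bp before and 12 bp after the summit. This word is the core of a fly core-promoter element known as Motif 1, and it was added to the search after the sequence of this peak had been read. Among the 3421 thresholded peaks, 138 (4.03%) held it at least once and 2 (0.0585%) at least 2 times. In sub-threshold peaks those shares were 2.36% and 0.0715%. Within 50 bp of the summit it occurred in 1.93% of thresholded summits within 500 bp of a TSS, and in 1 of the 239 distal intergenic ones, which is this site. A match of letters describes the sequence and is no evidence of a promoter or of a bound factor.

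GAGAG, the core recognised by the GAGA factor, was in 7 of the 53 distinct summit windows (50 bp to either side) in the 9 regions (13.2%), against 9.85% of all thresholded and 13.2% of all sub-threshold windows. AATATT was also in 7 of 53 (13.2%, against 19.3% and 11.2%). With 100 bp to either side of a summit, GAGAG was in 12 of 53 windows (22.6%, against 23.3% of thresholded and 24.6% of sub-threshold ones). AATATT was then also in 12 of 53 (22.6%, against 30.8% and 20%), and GTCACACT in 2 of 53 rather than 1. TATCGATA, the DNA replication-related element, was in 0 of 53, against 0.965% of thresholded and 0.974% of sub-threshold windows. CAGGTAG, recognised by the early embryonic activator Zelda, was in 0 of 53, against 0.468% and 0.44%. At such low background shares 53 windows would hold few matches. The median GC content of the 53 windows, 50 of them sub-threshold, was 40.6%, equal to that of all sub-threshold windows. The 3 thresholded windows among them had a median of 38.6%, and the 2 at the slp genes had 23.8% and 42.6%. The median of thresholded windows in general, 32.7%, lies between those 2 values.

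hry (hairy) encodes a basic helix-loop-helix repressor of the Hairy and Enhancer of split family. It lies on arm 3L from 8675759 to 8679253. Its thresholded peak (8675665 to 8676054) had its summit between the gene's 2 annotated TSSs, 95 bp upstream of the inner one. The pooled signal was 187 (rank 2073), with 117 in replicate 1 (rank 2168) and 73.1 in replicate 2 (rank 2014). Both replicates placed it close to its pooled rank, and the pooled list was called on both of them. The peak was in the weaker part of the thresholded list, whose median signal was 206. In their windows, 14.5% of all protein-coding genes had a stronger best peak. hry also had the most pooled summits of the 9 regions, 16, or 6.28 per 10 kb, against a median of 2.54 per 10 kb over all protein-coding genes. The other 15 were sub-threshold, with signals from 31.8 to 92.2. A pair of intronic summits 659 and 941 bp downstream of the inner TSS reached 70 and 57.4. Their intervals overlap, as do those of the summits 1931 and 2133 bp upstream of the gene's 5′ end. A count of summits is therefore not a count of separate sites. A string of 8 intergenic summits followed downstream, from 5557 to 13039 bp past the inner TSS, with signals from 31.8 to 78.9. The highest sub-threshold summit, 7420 bp upstream of the gene's 5′ end, had a signal of 92.2 and ranks of 7756 and 8741 in the replicates.

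odd (odd skipped) and opa (odd paired) encode zinc-finger proteins, a repressor and a Zic-family factor that changes the regulation of the other pair-rule genes as gastrulation nears. odd, on the minus strand of arm 2L (3604224 to 3606756), had 9 pooled summits in its region, all sub-threshold. The summit in its window lay 54 bp downstream of the TSS with a signal of 87.6 (rank 7695; replicate ranks 8818 and 9634). A stronger one lay 8070 bp downstream of the TSS, with a pooled signal of 123 (rank 4421). Replicate 2 ranked that site 3306, within its own strongest 3421 peaks, and replicate 1 ranked it 6266. The nearest thresholded summit was 18222 bp downstream of the TSS, close to lncRNA:TS2. opa (arm 3R, 4852813 to 4869979) has the longest window of the 9 and held 4 pooled summits in it. The strongest lay in an intron, 8496 bp downstream of the TSS, with a signal of 101.3 (rank 6137; replicate ranks 8214 and 6096). A summit 98 bp upstream of the opa TSS reached 63.3 (rank 12492) and was covered by a peak of replicate 1 only. The remaining intronic summits, at 35.4 and 48.6, were each covered by a peak of a single replicate.

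The homeodomain genes eve, ftz and prd, and the Runt-domain gene run, had no summit of any list in their windows, the replicate lists included. ftz, the fushi tarazu gene (arm 3R, 6864324 to 6866244), had none in its whole region either. The nearest pooled summits were 33884 bp upstream and 37176 bp downstream of the gene. Regions without any pooled summit occurred at 1815 protein-coding genes (13%). run (arm X, 20690670 to 20697321) had 1 pooled summit, 2791 bp upstream of its 5′ end, with a signal of 40.6 (rank 22354) and no covering peak in replicate 1. Downstream of run the next pooled summit was 26177 bp away.

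The region of eve, a gene whose product is a repressor and whose stripe enhancers lie on both sides of it (arm 2R, 9979319 to 9980795), held 4 pooled summits, each at the TSS of another gene. The strongest lay at CG12134, 8076 bp upstream of eve, with a pooled signal of 124 (rank 4345). A replicate 2 peak of rank 2732 covered this summit, and no replicate 1 peak did. The replicate 1 list held 3 summits in the eve region, and only intervals spanning the pooled summit were counted. Whether the replicates differed in signal at this site was therefore not shown. A pair at TER94, 9800 and 10037 bp downstream, reached 80.4 and 60.8, and one at eIF3j reached 50. The TER94 intervals overlap and were covered by the same replicate 1 peak. The nearest thresholded summit lay 19410 bp upstream, 169 bp from the TSS of Pal1, and was among the strongest of all (signal 1223.5, rank 36). prd, which encodes a paired-domain and homeodomain factor (arm 2L, 12082995 to 12085827), had 5 pooled summits in its region. None was nearer than 6786 bp to the gene. The strongest, 60.5 (rank 13282), lay 109 bp downstream of the TSS of CG14947. Others lay at the TSSs of Mt2 (35.1) and Ced-12 (52).

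**Figure D3:**
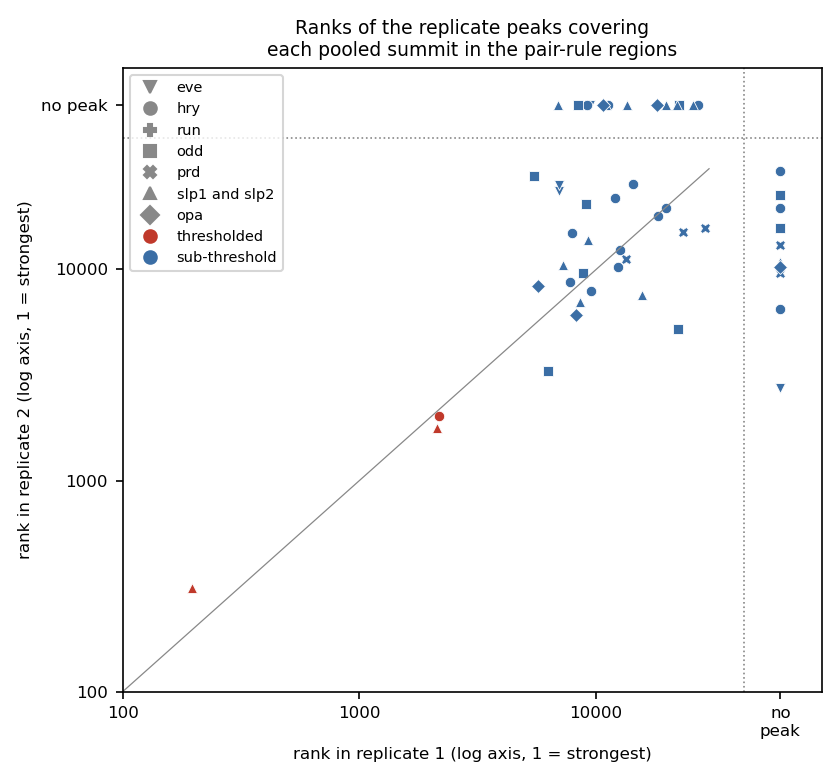
Rank in replicate 2 (vertical) against rank in replicate 1 (horizontal) of the peaks that cover each of the 53 distinct pooled summits in the pair-rule regions, both on log axes, with 1 the strongest and the line marking equal ranks. Red symbols are thresholded and blue sub-threshold, and points beyond the dotted lines had no covering peak in that replicate. The 3 thresholded summits lie near the line. Thresholded peaks are the strongest of the pooled list, which was called on both replicates. The sub-threshold ones scatter widely, 25 of the 50 lacking a covering peak in a replicate.

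Most summits of the 9 regions were sub-threshold, and many were covered by a peak of 1 replicate only, as was so of sub-threshold summits in general. A missing covering peak means that no listed interval of that replicate spanned the summit, not that signal was absent. The pooled list was called on both replicates, so overlap with a replicate peak is no independent measure. Of the 53 distinct pooled summits, 28 fell inside a peak in each replicate, 14 in a peak of replicate 1 only and 11 in a peak of replicate 2 only. Summits with overlapping intervals were counted separately. Of the 12 in gene windows, 6 fell inside one in each. Among the 50 sub-threshold summits the share found in both was 50%, close to the 53.6% of all 26579 sub-threshold summits. Their signals ran from 31.4 to 124 with a median of 56, against a median of 51.1 over all sub-threshold summits. By place, 34 of the 53 were intergenic, 14 lay within 500 bp of a TSS and 5 in introns, and 30 had a pair-rule gene as the nearest TSS. A pooled summit within 500 bp of their own TSS occurred at 5 of the 9 genes (55.6%), against 49.9% of all protein-coding genes. The one at hry was thresholded, and those of odd, slp1, slp2 and opa were not. In replicate 2 alone the count was 4, without opa. No share of all protein-coding genes was counted in that list, so the 4 cannot be read against a background.

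**Figure D4:**
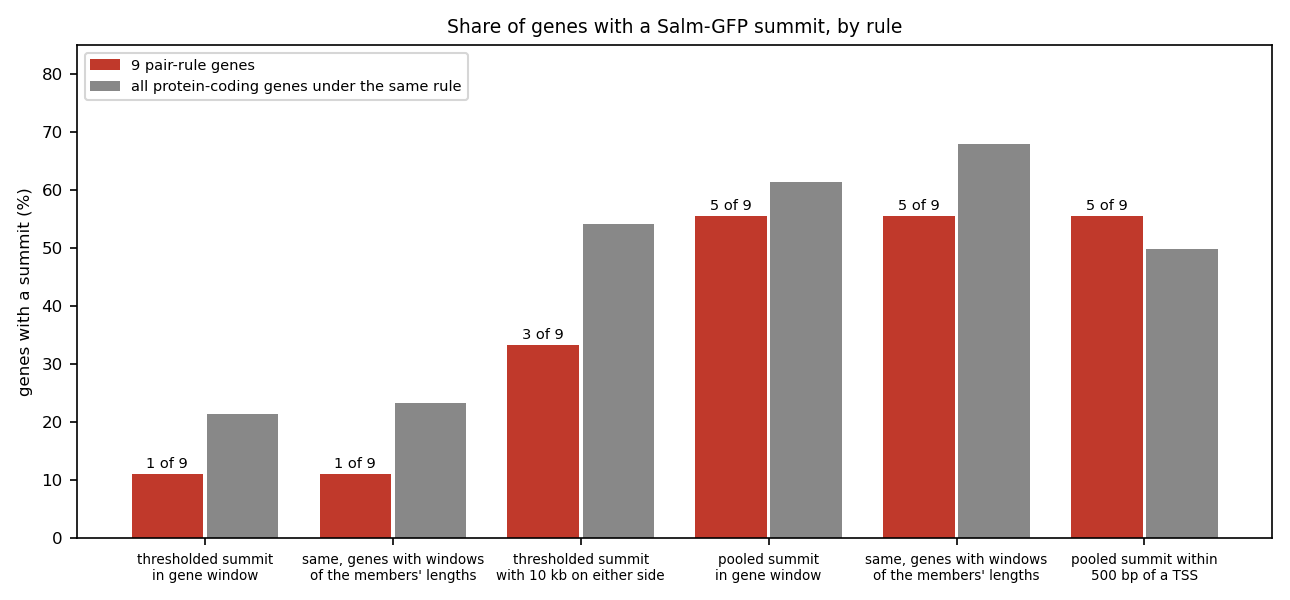
Share of genes with a summit (vertical, %, from 0) under 6 rules (horizontal), for the 9 pair-rule genes in red and all protein-coding genes under the same rule in grey. The red bars lie below the grey ones except for a pooled summit within 500 bp of a TSS, where they reach 55.6% against 49.9%.

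Genes acting above, beside and below the pair-rule genes differed among themselves. Of 8 cofactors and timing factors, 4 had a thresholded summit in their window: ftz-f1, gro, Stat92E and cad. ftz-f1 encodes the nuclear receptor that binds DNA together with Ftz. Its window of 52703 bp held 10 thresholded summits, with a strongest signal of 223. gro, the Groucho corepressor used by Hairy and Eve, had 2 and a strongest signal of 402 at 144 bp upstream of its TSS. Stat92E, the JAK pathway transcription factor, had 3 (strongest 299), and cad, which encodes the posterior homeodomain factor Caudal, had 2 (strongest 209, in an intron). Ten-m, D, zld and hop had sub-threshold peaks only. Among 11 paralogues of pair-rule genes, bowl, a relative of odd, had 4 thresholded summits with a strongest signal of 579 at 215 bp upstream of its TSS. odd itself and its relatives sob and drm, which lie in the same part of arm 2L as bowl, had none. Of 7 gap and maternal genes (bcd, hb, Kr, gt, kni, tll and hkb) 0 had one, and of 6 segment polarity genes only ptc, the Hedgehog receptor, had one (signal 470), while en, inv, wg, hh and mid had none. These counts stand beside the same background of 21.4% and were not tested. They were not matched on length: windows in these lists reached 52703 bp at ftz-f1 and 116820 bp at Ten-m, beyond the range of the pair-rule genes.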

How the data were processed

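The submitters' lists are dm6 narrowPeak files, per the file headers and the deposited descriptions: peaks of each replicate against a control, of both replicates pooled, and a list thresholded by the irreproducible discovery rate. The labels name no peak caller, aligner, threshold or read total, and depth is therefore unknown. Each deposited signal is the caller's strength value on a scale of its own in each list, and signals were compared within a list only. The deposited −log10 q-value has a ceiling in each list and was not used. All 3421 thresholded peaks are the strongest of the 30000 in the pooled list, and the fixed list length of 30000 limits what a missing peak means.

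Genes came from Ensembl release 115 (BDGP6.54) and sequence from RefSeq Release 6, the assembly that dm6 names. Transposable elements were left out. Summits were the deposited start plus offset, given 1-based. Each replicate peak counted was the strongest interval covering a pooled summit. No test was made, since there is 1 group. The 41 genes of 5 lists all matched, and genes were named as members of these lists or as owners of the nearest TSS. The members and lists were chosen with earlier results of these data known. Motif shares are over 50 bp on either side of a summit, on both strands. Counting was checked on 200 planted summits over 13945 genes, and all 200 were recovered. Python 3.11.15, numpy 2.4.6, pandas 2.3.3 and matplotlib 3.10.9 were used.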

Additional observations from a re-analysis of the deposited data

How the results depend on the processing

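Of 53 alternatives, 34 kept the value within the tolerance and 19 moved it. The tolerance was 1.5 times for counts and 1 SD of the 2 replicate ranks for the best rank of a gene. The count of pair-rule genes with a thresholded summit in the window (1) was 2 with windows from 5 kb upstream (slp2 joined), 3 with each summit given to the nearest TSS (slp1 and slp2 joined), 0 with the stronger 1710 thresholded peaks, and 2 with the 6842 strongest pooled peaks (opa joined). It was 1 without either replicate. The distinct thresholded summits in the regions (3) numbered 11 with 20 kb on either side, 1 with the stronger 1710 peaks, 6 with the 6842 strongest pooled peaks, and 3 to 5 with the 3421 strongest peaks of a single replicate. Without replicate 1, the sites at CG12134 near eve and downstream of odd were added. The genes reached within 10 kb (3) numbered 6 with 20 kb on either side, and 3 to 5 when either replicate was left out. Windows without upstream sequence left 3 genes with a pooled summit (hry, odd and opa). The flanks and windows alter the length searched, and other causes were not tested. No share of all protein-coding genes is given under these changed rules, so the changed counts cannot be read against a background. Summits in windows shared by both replicates, and pooled summits near a TSS, kept their counts within 1.5 times. The alternatives for pooled summits at a TSS and for genes reached within 10 kb, the wider motif windows and the word GTCACACT were chosen after the data were seen. No paired analysis was possible because there is 1 group.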

Other observations

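The 9 genes differed widely in how crowded with pooled summits their surroundings were, overlapping intervals being counted separately. Pooled summits per 10 kb ran from 0 at ftz and 0.349 at run, through 1.28 at opa, 1.7 at eve, 2.01 at prd and 3.67 at odd, to 4.27 at slp1, 4.52 at slp2 and 6.28 at hry. The distance to the nearest thresholded summit ran from 95 bp at hry to 39096 bp downstream of the ftz TSS, and was 35604 bp upstream of run and 31478 bp upstream of opa. At prd it was 17739 bp upstream, 185 bp from the TSS of ThrRS, the threonyl-tRNA synthetase gene. Beyond the regions described, the 20 kb flanks of slp1 and slp2 held a strong peak 20922 bp upstream of slp1, 929 bp from the TSS of Reph (signal 1126.9, rank 47), and one near lncRNA:CR45451 (signal 148). Those of hry held 2 more, 35 bp from the TSS of lncRNA:CR44526 (signal 178) and 3907 bp beyond that TSS (signal 210). bowl (3771700 to 3784121) lies in the same part of arm 2L as slp1 and slp2. Its strongest peak had pooled rank 224 against 223 for the slp peak, with replicate ranks of 199 and 293 against 196 and 311. Any relation between the 2 peaks was not tested, and neighbouring ranks show none.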
